A study of Mus musculus with 12 samples.

Results

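ABC transporters are the genes whose single symbol in the array's annotation was Abc, a letter from a to g and a digit, with 1 gene left out. They numbered 44 of the 18193 genes measured in mouse liver, each read through its probe set with the highest mean over the 12 arrays. Of these, 39 exceeded the 40th percentile of all values on at least 3 arrays and were tested, among 13788 tested genes. The other 5 (Abca12, Abca13, Abca14, Abca16 and Abcb1b) exceeded that floor, a log2 intensity of 4.999, on 0 of 12 arrays. Just inside it were Abcc12, above the floor on 9 arrays with levels of 4.73 to 5.39, and Abcc1, on 10 arrays with levels of 4.91 to 5.99. Just outside were Abcb1b, with levels of 3.07 to 4.84, and Abca12, with levels of 3.89 to 4.47.

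The study measured liver RNA of male C57BL6J mice on Affymetrix arrays at an age of 30 weeks. Penicillin mice drank water with 6.7 mg/L penicillin, while control mice had no antibiotic. In each case some mice moved at week 17 from chow with 13.5% of its energy as fat to a high-fat diet with 45%, and the rest stayed on chow. The 4 groups were thus penicillin with high-fat diet, control with high-fat diet, penicillin with chow and control with chow, with 3 biological replicates each. Tissue was whole liver, and the labels do not say which mice shared a cage or litter.

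ABC transporters use the energy of ATP to move lipids, bile components, conjugated drugs and metabolites across membranes. In liver they are best known at the canalicular membrane, where hepatocytes export phospholipid, sterols, bilirubin conjugates and drugs into bile. They also act at the sinusoidal membrane, where Abca1 loads cholesterol onto apolipoprotein A-I to start HDL, and in peroxisomes, lysosomes and mitochondria. Several, among them Abca1, Abcg1, Abcg5 and Abcg8, are targets of the liver X receptors, which are activated by oxysterols.

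Of the 39 tested transporters, 7 passed the test in at least 1 comparison: Abcd2, Abcg1, Abca9, Abcc9 and Abcb1a were higher and Abca1 and Abca2 lower in a comparison of high-fat diet with chow, and Abcb1a was also higher with penicillin on high-fat diet. The other 32 passed in none. All tests were limma's moderated test on 4 group means with Benjamini-Hochberg adjustment over the 13788 genes and a threshold of 0.05 on the adjusted p. High-fat diet averaged over both treatments gave 3 higher (Abcd2, Abcg1 and Abca9) and 2 lower transporters (Abca1 and Abca2; 12.8% of 39), against a background of 14.5% of all tested genes. Within penicillin mice it gave 4 higher (Abcd2, Abcg1, Abcc9 and Abcb1a) and the same 2 lower (15.4%), against 8.32%, and within control mice 0, against 0.899%. Penicillin gave 1 transporter on high-fat diet (2.56%), against 0.341%. It gave 0 on chow, against 0.00725%, and 0 averaged over diets, against 0.145%. The interaction of penicillin and diet gave 0, against 0.0435%, and the test of any difference among the 4 groups gave 5, against 7.78%. For the comparisons with 0 called, an unadjusted p under 0.05 was met by 3 transporters for penicillin on chow (7.69%, against 7.62% of all genes), 6 for high-fat diet in control mice (15.4%, against 15.1%), 5 for penicillin averaged over diets (12.8%, against 11.9%) and 5 for the interaction (12.8%, against 6.11%). The median log2 change of the 39 with high-fat diet averaged over treatments was -0.031, against -0.0084 for all tested genes.

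**Figure D1:**
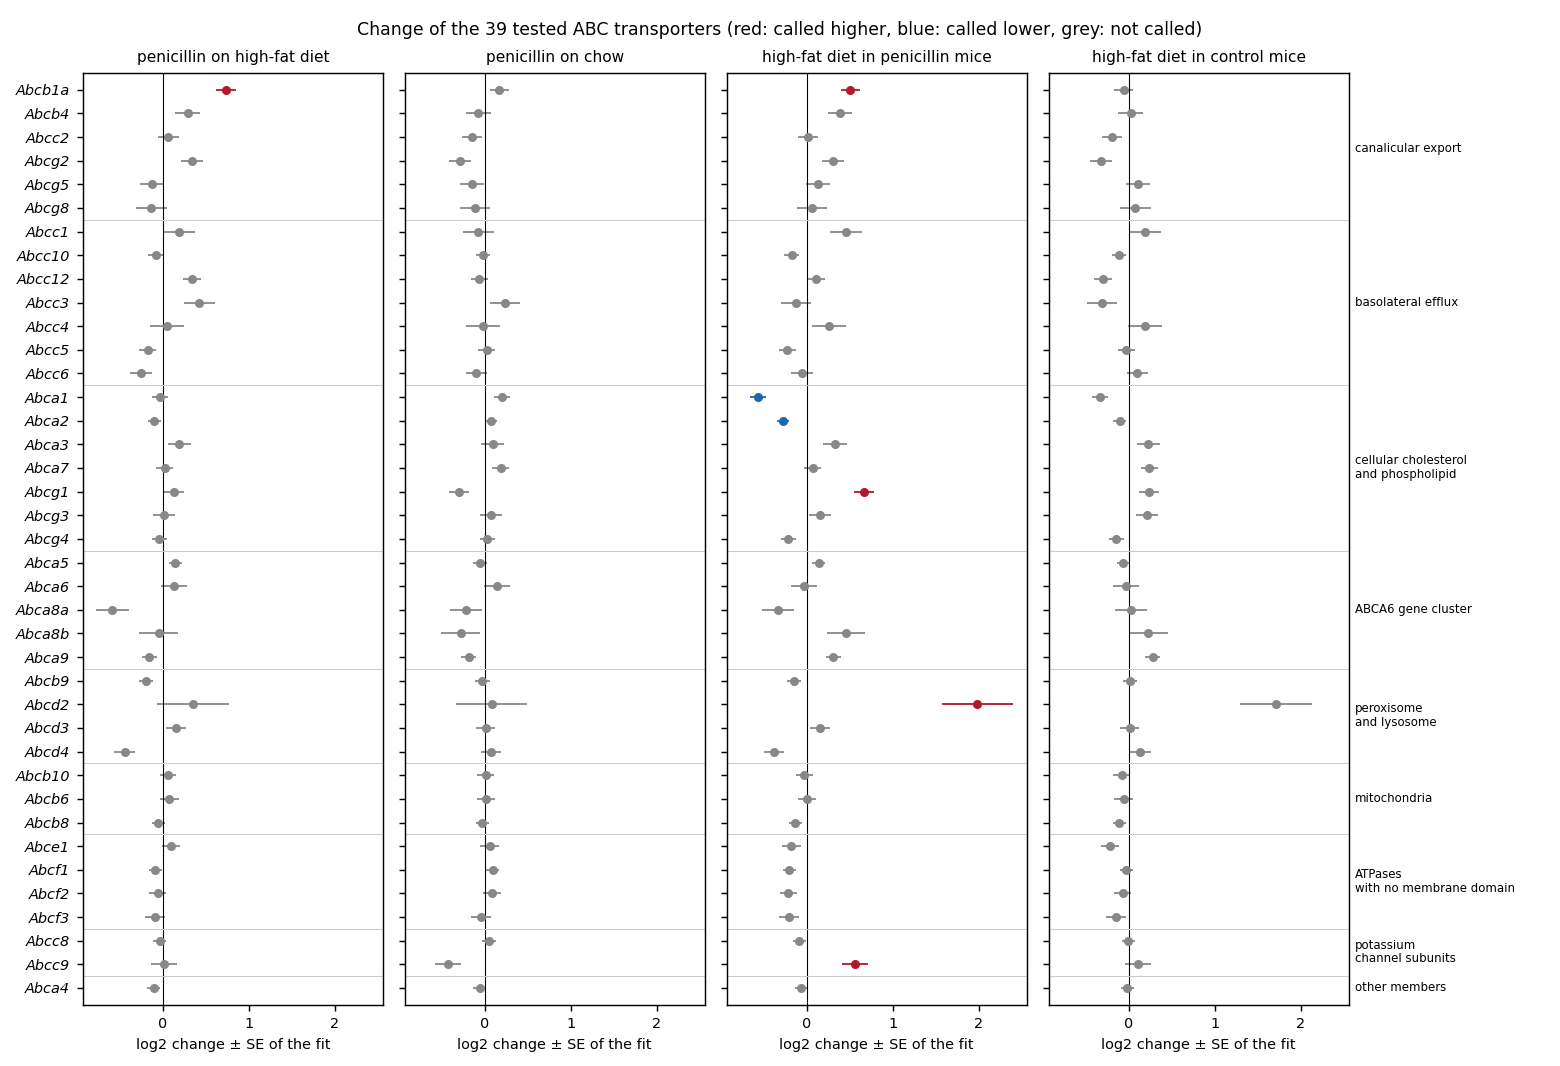
Log2 change with its standard error for each of the 39 tested ABC transporters (rows, grouped by function) in the comparison named above each panel, on one shared axis. Red points were called higher, blue points called lower and grey points not called. Abcd2 stands farthest to the right with high-fat diet, at 1.98 in penicillin mice and 1.71 in control mice, and Abcb1a with penicillin on high-fat diet, at 0.73.

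Arrays of one group correlated at 0.985 to 0.995 over the 13788 tested genes. The control signal for 18S ribosomal RNA was at most 11.8 on 3 arrays (penicillin with high-fat diet 2, penicillin with chow 2 and penicillin with chow 3) and at least 12.67 on the other 9. All 7 measured hepatocyte markers passed the floor, with a mean level of 13.6 to 13.9 on every array, and 1 of them, Cps1, was lower with high-fat diet averaged over treatments (-0.26, adjusted p = 0.0125). Many markers of other liver cells were called higher with high-fat diet averaged over treatments, beside 14.5% of all tested genes called in that comparison. They were 7 of 8 for macrophages (median log2 change 0.70), 6 of 8 for endothelium (0.35) and 4 of 8 for stellate cells (0.23). Negative changes, not called, were those of the endothelial marker Kdr (-0.022) and the stellate markers Col1a1 (-0.00069) and Hgf (-0.12). The mean level of the macrophage list was 9.32 to 9.99 in penicillin mice on high-fat diet, 9.81 to 9.95 in control mice on high-fat diet, 8.62 to 9.22 in penicillin mice on chow and 9.36 to 9.48 in control mice on chow. In whole liver, more cells of a type and more RNA per cell cannot be told apart. Of 4 tested adipocyte markers, Cidec (1.68) and Fabp4 (1.11) were higher, while Pck1 (0.36, adjusted p = 0.143) and Retn (-0.12, adjusted p = 0.236) did not pass. Cidec was also higher with penicillin on high-fat diet (2.96, adjusted p = 0.00841). Adipoq, the defining secreted protein of adipocytes, exceeded the floor on 0 of 12 arrays (3.13 to 3.58). None of the tested cholangiocyte, T cell, B cell, neutrophil or erythroid markers passed, but penicillin with chow 1 carried the neutrophil gene S100a8 at 9.14, against 4.88 to 6.82 elsewhere. That array is the only one of its group left in any fit without the 3 arrays of low 18S, so such a fit compares chow-fed penicillin mice through 1 mouse that stands apart.

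The largest change of the family was in the peroxisomal half-transporter Abcd2, which imports very long-chain and polyunsaturated acyl-CoA into peroxisomes for oxidation. Its level was 8.25, 7.35 and 7.43 in penicillin mice on high-fat diet and 7.54, 7.05 and 7.39 in control mice on high-fat diet, against 4.81, 6.12 and 6.15 in penicillin mice on chow and 5.07, 5.30 and 6.47 in control mice on chow. Every mouse on high-fat diet lay above every mouse on chow, although chow mice spread widely and penicillin with chow 1 was below the floor. Averaged over treatments, the log2 change was 1.85 ± 0.29 (SE, a 3.60-fold difference, adjusted p = 0.00233). It was 1.98 ± 0.41 in penicillin mice (adjusted p = 0.014) and 1.71 ± 0.41 in control mice (adjusted p = 0.0768, not called). The change did not differ detectably between treatments, with an interaction of 0.27 (adjusted p = 0.979). Without penicillin with high-fat diet 1, the change in penicillin mice was 1.70 with an adjusted p of 0.0635. Without the 3 arrays of low 18S it was 3.03 (adjusted p = 0.0166), set against penicillin with chow 1 alone, the lowest of the 12 mice for Abcd2. In control mice the change passed without control with chow 3 (2.14, adjusted p = 0.0368) or without penicillin with chow 1 (adjusted p = 0.0285), which enters this contrast only through the shared spread.

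Abcd2 had other probe sets, with changes of 2.41, 1.36 and -0.0015 with high-fat diet averaged over treatments, the last from a probe set with a mean of 3.78, under the floor. The other peroxisomal and lysosomal transporters did not pass. Abcd3, the abundant peroxisomal half-transporter that takes up branched-chain and dicarboxylic acyl-CoA, was at 13.22, 13.36 and 13.18 in penicillin mice on high-fat diet and 13.13, 13.18 and 12.99 in control mice on high-fat diet, against 12.84, 13.29 and 13.17 in penicillin mice on chow and 13.20, 12.96 and 13.11 in control mice on chow. The groups overlapped, and the change with high-fat diet averaged over treatments was 0.083 (adjusted p = 0.53). Of 11 tested peroxisomal and mitochondrial partner genes, 2 were higher with high-fat diet averaged over treatments and none lower, beside 14.5% of all tested genes called in that comparison. They were Pex3, which builds peroxisomal membranes and inserts their proteins (0.34 ± 0.060, adjusted p = 0.00444), and Acaa1b, a peroxisomal thiolase (0.27 ± 0.065, adjusted p = 0.019).

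Abcd4, which exports cobalamin (vitamin B12) from lysosomes, was at 7.26, 7.43 and 6.98 in penicillin mice on high-fat diet, against 7.61, 7.60 and 7.80 in control mice on high-fat diet. It was at 7.59, 7.54 and 7.69 in penicillin mice on chow, against 7.59, 7.67 and 7.35 in control mice on chow. All 3 penicillin mice on high-fat diet lay below all 3 controls on that diet, while the chow groups overlapped. The difference on high-fat diet was -0.45 ± 0.12 with an adjusted p of 0.176, and the interaction was -0.52 (adjusted p = 0.646), so neither passed. A dimmer probe set of Abcd4 gave -0.14 for the same difference. Abcb9, the lysosomal peptide transporter, did not pass in any comparison either.

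Among the transporters of cellular cholesterol and phospholipid, Abca1 fell and Abcg1 rose with high-fat diet. Abca1 is the HDL-initiating exporter of cholesterol and phospholipid. Its level was 11.27, 11.27 and 11.11 in penicillin mice on high-fat diet and 11.15, 11.29 and 11.31 in control mice on high-fat diet, against 11.99, 11.68 and 11.70 in penicillin mice on chow and 11.63, 11.52 and 11.61 in control mice on chow. No mouse on high-fat diet reached the lowest mouse on chow. The log2 change averaged over treatments was -0.45 ± 0.066 (adjusted p = 0.00168), with -0.57 ± 0.094 in penicillin mice (adjusted p = 0.00485) and -0.33 ± 0.094 in control mice (adjusted p = 0.117, not called). The interaction was -0.24 (adjusted p = 0.86). The 2 other probe sets, one of them below the floor on average, gave -0.40 and -0.41 for the averaged change. With all probe sets of a gene averaged, however, the change over both treatments was -0.42 with an adjusted p of 0.0567. The call in penicillin mice was also lost in that setting (adjusted p = 0.151).

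Abcg1 moves cholesterol out of cells onto mature HDL and is most active in macrophages. Its level was 7.84, 7.92 and 7.71 in penicillin mice on high-fat diet and 7.77, 7.74 and 7.57 in control mice on high-fat diet, against 7.44, 6.96 and 7.07 in penicillin mice on chow and 7.54, 7.42 and 7.41 in control mice on chow. Every high-fat mouse lay above every chow mouse, and the 2 lowest values belonged to penicillin with chow 2 and 3, which were also low for 18S and for the macrophage list. The change averaged over treatments was 0.45 ± 0.084 (adjusted p = 0.00462), with 0.67 ± 0.12 in penicillin mice (adjusted p = 0.00576) and 0.24 ± 0.12 in control mice (adjusted p = 0.362). The interaction of 0.43 did not pass (adjusted p = 0.736). With the 18S signal as a covariate both calls were kept, at 0.42 averaged (adjusted p = 0.00854) and 0.61 in penicillin mice (adjusted p = 0.0145). Without the 3 arrays of low 18S, where penicillin with chow 1 alone stands for its group, they were 0.29 (adjusted p = 0.0383) and 0.34 (adjusted p = 0.136). The part of the macrophage markers in this change was not tested. The other probe set of Abcg1 gave 0.27 for the averaged change.

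Abca2, a transporter of late endosomes and lysosomes tied to sterol handling, was at 7.06, 7.09 and 7.07 in penicillin mice on high-fat diet and 7.24, 7.24 and 7.04 in control mice on high-fat diet. On chow it was at 7.41, 7.36 and 7.27 in penicillin mice and 7.27, 7.31 and 7.24 in control mice. The penicillin groups were separate, and the control groups overlapped. The change with high-fat diet was -0.27 ± 0.071 in penicillin mice (adjusted p = 0.0421) and -0.19 ± 0.050 averaged over treatments (adjusted p = 0.0338). These calls were close to the threshold. That in penicillin mice held in 2 of the 12 fits that left out 1 array, with adjusted p up to 0.124, and the averaged one in 4 of 12, with adjusted p up to 0.0735. Abca3, Abca7, Abcg3 and Abcg4, also placed in this group of 7, did not pass in any comparison. Placement in a group does not mean that the function was tested for each member.

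**Figure D2:**
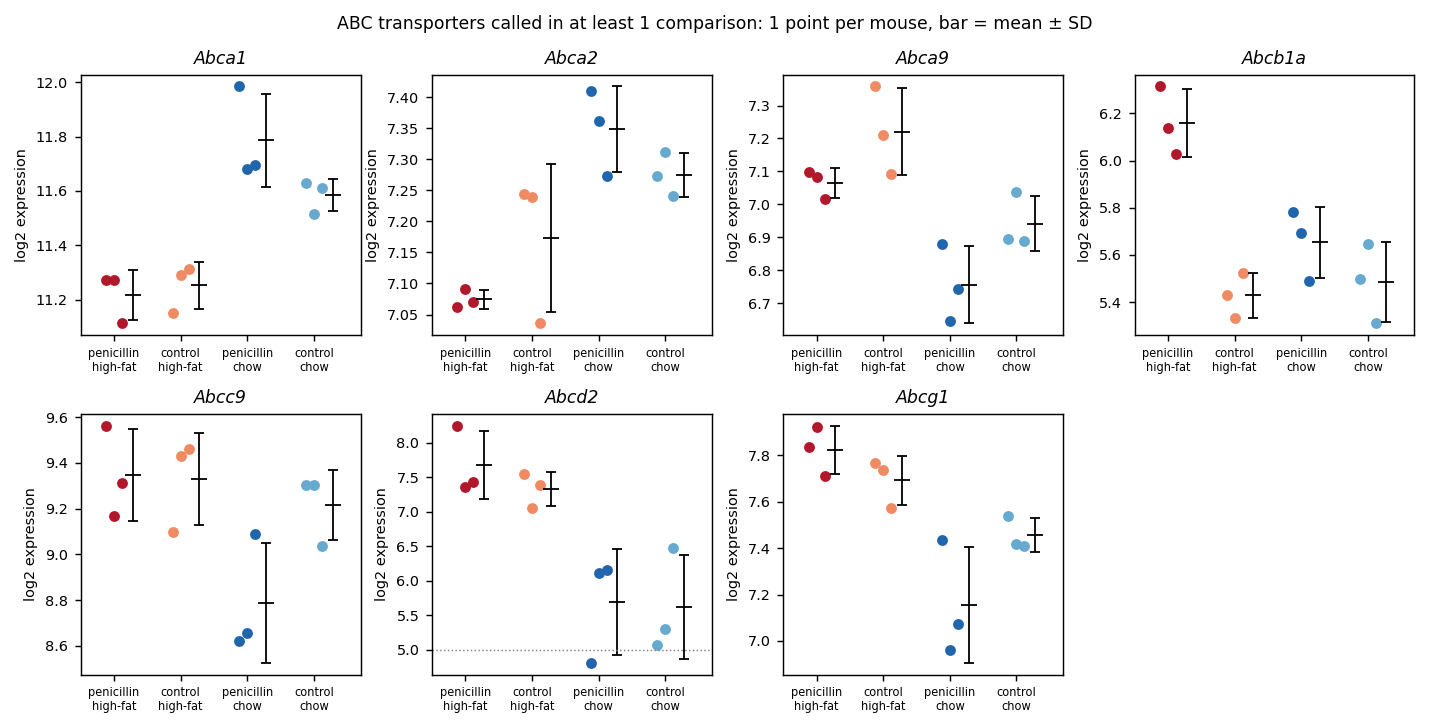
Log2 intensity on each of the 12 arrays (points) and the group mean ± SD (bars) for the 7 ABC transporters called in at least 1 comparison, one panel per gene with its own axis that does not start at 0; the dotted line in the panel of Abcd2 marks the floor of 4.999. Abcd2 and Abcg1 lie higher, and Abca1 lower, on every high-fat array than on every chow array, and Abcb1a is highest on the 3 arrays of penicillin mice on high-fat diet.

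**Figure D3:**
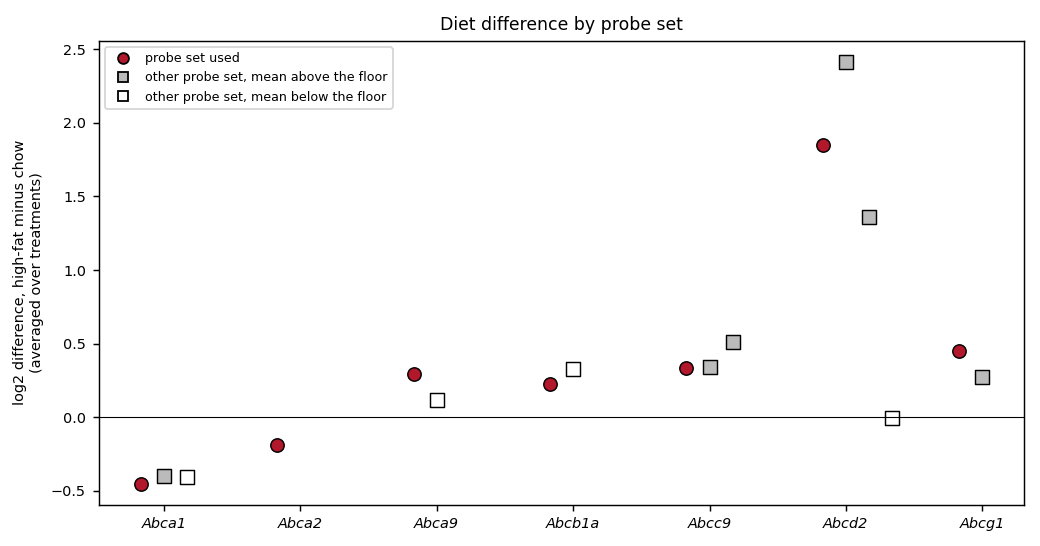
Log2 change with high-fat diet averaged over treatments for every probe set of the 7 called ABC transporters; circles are the probe sets used, grey squares other probe sets with a mean above the floor and white squares those below it. The probe sets of Abca1 lie together at -0.40 to -0.45, whereas those of Abcd2 span -0.0015 to 2.41.

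The genes that control these transporters were also read. Of 20 tested receptors and factors, 3 were higher with high-fat diet averaged over treatments and 1 was lower, a count to be read beside the 14.5% of all tested genes called in that comparison. The higher ones were Ppargc1a, a coactivator of oxidative metabolism (1.03 ± 0.15, adjusted p = 0.00164), the xenobiotic receptor PXR gene Nr1i2 (0.43 ± 0.066, adjusted p = 0.00191) and Foxa2 (0.60 ± 0.17, adjusted p = 0.0382). The lower one was Srebf2, the regulator of cholesterol synthesis (-0.25 ± 0.065, adjusted p = 0.0262). Of 9 other tested targets of the liver X receptors, 3 were higher and none lower: Smpdl3a (0.46 ± 0.053, adjusted p = 0.000478), the fatty acid desaturase gene Scd1 (0.31 ± 0.061, adjusted p = 0.00728) and Mylip, which marks the LDL receptor for degradation (0.50 ± 0.10, adjusted p = 0.00863). Abca1 thus moved opposite to Abcg1 and to these 3. Of the 9 targets 7 had positive changes. Srebf1 (-0.48, adjusted p = 0.133) and Lpl (-0.35, adjusted p = 0.133) had negative changes, like Abca1, but did not pass. Of 13 tested genes of HDL and sterol trafficking, 1 passed, the sterol carrier Stard4, which was lower (-0.42 ± 0.12, adjusted p = 0.0427). With penicillin on chow no gene of these lists passed.

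The 5 tested genes of the Abca6 cluster lie side by side on chromosome 11. Abca9, a member of the cluster whose substrate is not settled, was called, and the other 4 were not. Its level was 7.10, 7.08 and 7.02 in penicillin mice on high-fat diet and 7.36, 7.21 and 7.09 in control mice on high-fat diet, against 6.88, 6.65 and 6.74 in penicillin mice on chow and 6.90, 7.04 and 6.89 in control mice on chow. Within each treatment every high-fat mouse lay above every chow mouse, but over both treatments the diets overlapped at 7.02 and 7.04. The averaged change was 0.29 ± 0.062 (adjusted p = 0.0103), with 0.31 in penicillin mice (adjusted p = 0.0526) and 0.28 in control mice (adjusted p = 0.156). It was 0.27 (adjusted p = 0.0157) with the 18S signal as a covariate and 0.23 (adjusted p = 0.0954) without the 3 arrays of low 18S. Its other probe set was under the floor on all arrays and gave 0.12.

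Abca8a, one of the brighter transporters on these arrays, was at 10.71, 10.44 and 10.44 in penicillin mice on high-fat diet, against 10.98, 11.26 and 11.11 in control mice on high-fat diet. On chow it was at 10.35, 11.13 and 11.11 in penicillin mice, against 11.19, 10.87 and 11.19 in control mice. Penicillin mice on high-fat diet all lay below their controls, and of the chow mice penicillin with chow 1 was the low one. The difference on high-fat diet was -0.59 ± 0.19 (adjusted p = 0.286) and the average over diets -0.40 (adjusted p = 0.257). Without the 3 arrays of low 18S the average was -0.64 (adjusted p = 0.0237), but in that fit the low mouse, penicillin with chow 1, is the only one of its group. With 18S as a covariate it was -0.53 (adjusted p = 0.0911). Without penicillin with chow 1, Abca8a was lower with penicillin on high-fat diet (adjusted p = 0.0456) and lower with high-fat diet, at -0.59 in penicillin mice (adjusted p = 0.0166) and -0.28 averaged over treatments (adjusted p = 0.0478).

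Abca8b, the paralog next to it, gave -0.048 for penicillin on high-fat diet. With high-fat diet it gave 0.46 in penicillin mice (adjusted p = 0.239) and 0.34 averaged (adjusted p = 0.174). Without the 3 arrays of low 18S it passed, at 1.12 (adjusted p = 0.0268) and 0.67 (adjusted p = 0.0194), again against penicillin with chow 1 alone, its lowest mouse. Whether probes of one paralog read the other was not tested, so the separate levels of Abca8a and Abca8b are uncertain.

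Among the canalicular exporters, Abcb1a was the 1 of 6 tested that passed. It encodes a mouse P-glycoprotein, which pumps many drugs and other hydrophobic compounds out of cells. Its level was 6.31, 6.14 and 6.03 in penicillin mice on high-fat diet, against 5.43, 5.33 and 5.52 in control mice on high-fat diet. It was 5.78, 5.69 and 5.49 in penicillin mice on chow, against 5.50, 5.65 and 5.31 in control mice on chow. The 3 penicillin mice on high-fat diet were the 3 highest of all 12, and the chow groups overlapped. The difference on high-fat diet was 0.73 ± 0.11 (1.66-fold, adjusted p = 0.0141), and on chow 0.17 ± 0.11 (adjusted p = 0.771). The interaction of 0.56 ± 0.16 did not pass (adjusted p = 0.491), so a difference between diets was not shown. High-fat diet within penicillin mice gave 0.51 ± 0.11 (adjusted p = 0.0177) and within control mice -0.056 (adjusted p = 0.871).

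The call of Abcb1a on high-fat diet held in 9 of the 12 fits that left out 1 array. It was lost without control with high-fat diet 1 (0.73, adjusted p = 0.0739), control with high-fat diet 2 (0.68, adjusted p = 0.0908) or penicillin with high-fat diet 1 (0.66, adjusted p = 0.0837). The diet call within penicillin mice was lost without penicillin with chow 3 (0.42, adjusted p = 0.0625), without penicillin with high-fat diet 1 (0.43, adjusted p = 0.0787) and without the 3 arrays of low 18S (0.39, adjusted p = 0.205), and kept with 18S as a covariate (0.47, adjusted p = 0.0417). A second probe set of Abcb1a, under the floor on all 12 arrays, gave 0.70 for penicillin on high-fat diet. Abcb1b, the other mouse P-glycoprotein gene, also lay under the floor, and whether probes of one read the other was not tested, so their separate levels are uncertain.

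Abcg2, the canalicular exporter of urate and many drugs, was at 10.96, 10.91 and 11.09 in penicillin mice on high-fat diet, against 10.82, 10.68 and 10.42 in control mice on high-fat diet. On chow it was at 10.51, 10.82 and 10.70 in penicillin mice, against 11.18, 10.93 and 10.78 in control mice. Penicillin mice were thus all above their controls on high-fat diet, and on chow the groups overlapped with penicillin mice lower on average. The differences were 0.34 (adjusted p = 0.377) on high-fat diet and -0.29 (adjusted p = 0.65) on chow. Their difference, the interaction, was 0.63 ± 0.18, the largest of the 39, with an adjusted p of 0.536.

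Abcb4, which flips phosphatidylcholine into bile, was at 12.11, 11.55 and 12.12 in penicillin mice on high-fat diet, against 11.74, 11.67 and 11.51 in control mice on high-fat diet. On chow it was at 11.41, 11.53 and 11.67 in penicillin mice, against 11.75, 11.53 and 11.56 in control mice. Of the penicillin mice on high-fat diet 2 were above all others, and the third lay within the range of the controls. High-fat diet in penicillin mice gave 0.39 (adjusted p = 0.123). Without the 3 arrays of low 18S this was 0.71 (adjusted p = 0.0208), and the change averaged over treatments 0.37 (adjusted p = 0.0238), with penicillin with chow 1, the lowest mouse for Abcb4, alone in its group. Abcc2, which exports bilirubin conjugates, did not pass in any comparison.

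Abcg5 and Abcg8 encode the subunits that together form the sterol exporter of the canalicular membrane and are read outward in opposite directions from one short stretch of chromosome 17. Because the pair shares its start region, both promoter windows are printed, from RefSeq on GRCm38.p6, with the 209 bases that both windows hold in capitals. Abcg5 is read from the minus strand at chr17:84682962-84683261 and Abcg8 from the plus strand at chr17:84682871-84683170, with starts 110 bases apart. The Abcg8 window was chosen as the one nearest the Abcg5 window, so the overlap and this distance hold for that start. The annotated range of Abcg8 begins at 84676302, inside that of Abcg5.
Abcg5: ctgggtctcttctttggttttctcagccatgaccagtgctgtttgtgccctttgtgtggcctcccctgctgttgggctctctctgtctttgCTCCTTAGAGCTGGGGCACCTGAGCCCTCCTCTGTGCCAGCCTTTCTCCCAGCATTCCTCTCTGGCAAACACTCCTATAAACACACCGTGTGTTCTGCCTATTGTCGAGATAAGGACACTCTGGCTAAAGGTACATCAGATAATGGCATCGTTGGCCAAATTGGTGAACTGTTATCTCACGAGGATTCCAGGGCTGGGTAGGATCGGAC
Abcg8: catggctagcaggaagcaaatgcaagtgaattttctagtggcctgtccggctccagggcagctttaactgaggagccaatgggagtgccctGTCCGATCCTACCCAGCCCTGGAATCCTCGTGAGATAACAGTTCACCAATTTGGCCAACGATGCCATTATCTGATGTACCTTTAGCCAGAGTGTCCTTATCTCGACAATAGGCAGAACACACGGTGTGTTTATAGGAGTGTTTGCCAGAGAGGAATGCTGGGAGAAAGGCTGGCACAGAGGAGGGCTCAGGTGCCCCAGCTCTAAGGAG
Read on both strands, the shared stretch of 209 bases held the letters AGATAA, the core of GATA factor sites, 3 times. At least 1 copy occurred in 11.2% of all 32851 promoter windows, which are 300 bases long. How many windows hold 3 copies was not counted. The shared stretch held 1 copy each of TATAAA and CCAAT, which occurred at least 1 time in 13.6% and 37.4% of the full windows. The letters CACGTG (7.15% of windows), GGGCGG (35.7%) and AGGTCA (16.3%) did not occur in either window.

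Neither gene passed in any comparison. Abcg5 was at 9.69, 9.87 and 10.14 in penicillin mice on high-fat diet and 9.83, 10.09 and 10.15 in control mice on high-fat diet, against 9.65, 9.68 and 9.98 in penicillin mice on chow and 9.99, 10.04 and 9.72 in control mice on chow. Abcg8 was at 8.81, 8.97 and 9.37 in penicillin mice on high-fat diet and 8.89, 9.32 and 9.33 in control mice on high-fat diet, against 8.76, 8.92 and 9.26 in penicillin mice on chow and 9.29, 9.12 and 8.88 in control mice on chow. All groups overlapped, and within each group the mouse with the lowest Abcg5 had the lowest Abcg8. Across the 6 mice on high-fat diet, Pearson's r was 0.987 (exact permutation p = 0.00556, adjusted p = 0.1) and Spearman's rho 0.943 (exact p = 0.0167, adjusted p = 0.3). Leaving out the 2 mice farthest from the median of Abcg5 gave 0.999. Across the 6 mice on chow, r was 0.911 (exact p = 0.0556, adjusted p = 0.21), rho was 0.771 (exact p = 0.103, adjusted p = 0.306), and r was 0.981 without the 2 farthest. Adjustment ran over 18 relations, from 9 pairs of tested transporters within 200000 bases of each other and both diets. Of these, 2 had an unadjusted p under 0.05 and none passed after adjustment. The other was Abca8b with Abca8a on chow (r = 0.945, exact p = 0.0167, adjusted p = 0.15), with r = 0.644 without the 2 farthest mice. The 18 values of r ran between -0.823 and 0.987.

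**Figure D4:**
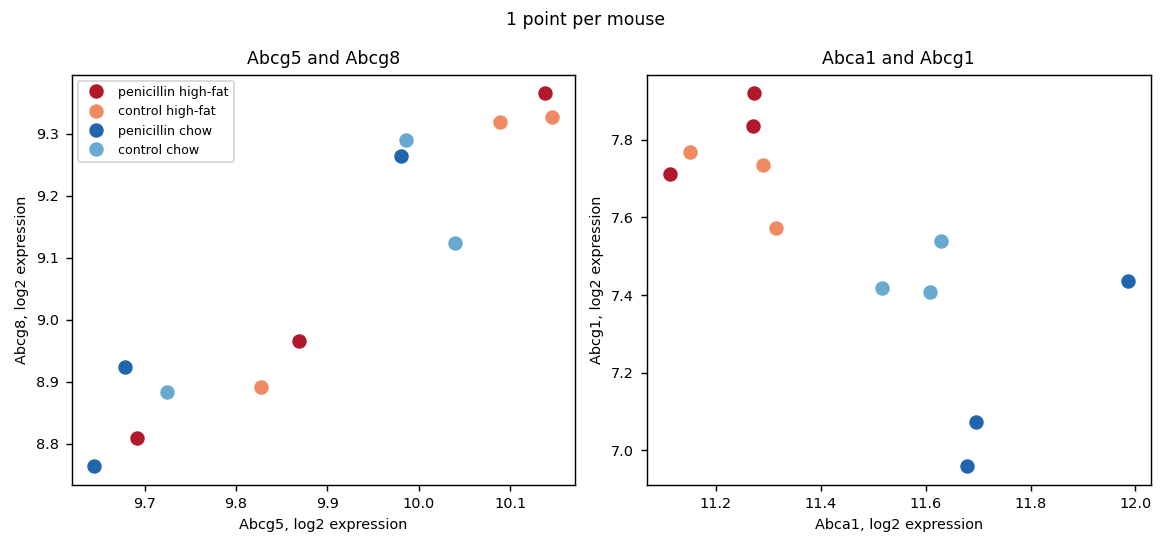
Log2 intensity of Abcg8 against Abcg5 (left) and of Abcg1 against Abca1 (right), 1 point per mouse, coloured by the 4 groups. Mice with more Abcg5 had more Abcg8 in both diets (r = 0.987 on high-fat diet and 0.911 on chow), while for Abca1 and Abcg1 the 6 high-fat mice lie apart from the 6 chow mice, with less Abca1 and more Abcg1.

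None of the 7 tested transporters placed in the group of basolateral exporters passed. Abcc3, which returns glucuronides to blood, was at 10.78, 10.49 and 10.78 in penicillin mice on high-fat diet, against 10.03, 10.45 and 10.29 in control mice on high-fat diet. On chow it was at 10.56, 11.02 and 10.83 in penicillin mice, against 10.54, 10.24 and 10.92 in control mice, and these groups overlapped. On high-fat diet the group means differed by 0.42 (adjusted p = 0.434), and the lowest penicillin mouse (10.49) lay just above the highest control (10.45). Abcc12, close to the floor and of unsettled function, was at 5.08, 5.05 and 5.39 in penicillin mice on high-fat diet, against 4.73, 4.79 and 4.98 in control mice on high-fat diet. All 3 controls were under the floor, so the size of the difference is not given; it did not pass (adjusted p = 0.243). For comparison, 12 other hepatocyte transport genes were tested, covering uptake carriers, efflux carriers and the canalicular flippase. For penicillin on high-fat diet 1 of the 12 passed, beside 0.341% of all tested genes. It was the organic anion carrier Slco1a1, which was lower (-0.84 ± 0.12, adjusted p = 0.00901). Slco1a1 was also lower with high-fat diet in penicillin mice (-0.65, adjusted p = 0.00638).

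Abcc9, the sulphonylurea receptor subunit of potassium channels gated by ATP, found in vascular and other contractile cells, passed in 1 comparison. Its level was 9.56, 9.17 and 9.31 in penicillin mice on high-fat diet and 9.10, 9.43 and 9.46 in control mice on high-fat diet, against 8.62, 8.65 and 9.09 in penicillin mice on chow and 9.30, 9.30 and 9.04 in control mice on chow. Penicillin mice on high-fat diet all lay above penicillin mice on chow, of which 2 were the lowest of all 12 mice. The change with high-fat diet in penicillin mice was 0.56 ± 0.15 (adjusted p = 0.0423), and in control mice 0.11 (adjusted p = 0.785). The interaction was 0.44 (adjusted p = 0.835). Its other probe sets gave 0.50 and 0.63 in penicillin mice. The call held in 5 of the 12 fits that left out 1 array, with adjusted p up to 0.162 without penicillin with high-fat diet 1, and with the replicate number as a block it had an adjusted p of 0.0713. For high-fat diet in penicillin mice, 3 of 8 stellate cell, 4 of 8 endothelial and 6 of 8 macrophage markers were called higher. Of all tested genes 8.32% were called in that comparison. Of the stellate markers 7 of 8 had positive changes, and that of Hgf was negative (-0.15, adjusted p = 0.414). The mean stellate level was 8.03 to 8.39 in penicillin mice on high-fat diet and 7.71 to 7.87 in penicillin mice on chow; the part of these cells in the change of Abcc9 was not tested.

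The remaining groups showed no call. The ATPases with no membrane domain, Abce1, which splits ribosomes after translation, and Abcf1, Abcf2 and Abcf3 of the translation-linked F subfamily, had averaged changes with high-fat diet of -0.20, -0.11, -0.14 and -0.18 (adjusted p between 0.11 and 0.202). Their other probe sets were not all negative. They gave -0.18 and 0.085 for Abce1, 0.097 for Abcf2, -0.11 and 0.037 for Abcf3, and -0.25 to -0.0088 for Abcf1. Without the 3 arrays of low 18S, and so with penicillin with chow 1 alone in its group, Abce1 (-0.34, adjusted p = 0.0218) and Abcf3 (-0.32, adjusted p = 0.024) passed. The mitochondrial transporters Abcb6, Abcb8 and Abcb10, which serve heme and iron handling and mitochondrial transport, had averaged changes of -0.026, -0.12 and -0.054. Other probe sets gave 0.0057 for Abcb8 and -0.027 and -0.073 for Abcb10. Abcc8, the other sulphonylurea receptor, gave -0.043, and Abca4, the retinoid flippase of photoreceptors, gave -0.041.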

How the data were processed

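The deposited values are log2 intensities, 1 per probe set and array, made by the authors; the submitters' processing notes name RMA and affy, without a version. Of 45101 probe sets, 34945 had 1 gene symbol in the platform annotation, 932 had several and 64 were controls; the controls and those with several or no symbol were not used. Each gene was read through its probe set of highest mean, and those exceeding 4.999, the 40th percentile of all values, on at least 3 arrays were tested with limma 3.58.1 in R 4.3.3: 4 group means, 8 residual degrees of freedom, empirical Bayes and Benjamini-Hochberg adjustment. Arrays have no read depth, so their number limits the precision. Groups came from the sample titles, and p-values measure the spread between the 3 samples of a group. The test recovered 46 of 50 genes changed by 1 log2 unit among 13788 simulated ones. Among the tested transporters only Abcd2 changed by more than 1 log2 unit, so this recovery does not cover the smaller changes of the others.

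Members, functional groups and lists were chosen with earlier results of these data known. Members described with every value are those called in a comparison, the 3 of smallest p per comparison and the 5 with the highest mean; Abcg5, Abcg8 and Abcc3 were added outside that rule, with their values seen; up to 4 genes per partner list and comparison are named. One family member is not reported here. Other filters, probe set summaries, scalings, weights, covariates, a replicate block and leaving out arrays were tried. Exact permutation tests used scipy 1.17.1. Promoters came from RefSeq (34 of 44 members had an entry).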

Additional observations from a re-analysis of the deposited data

How the results depend on the processing

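Of 582 alternative fits of the transporters named with a comparison, 523 kept their side of the threshold, 48 lost a call, 11 gained one and 0 reversed direction. Counts of called transporters, or the genes behind them, moved in these settings among others. For penicillin on high-fat diet (1), a floor at the 60th percentile gave 0, since Abcb1a was then not tested, and leaving out 1 array in turn gave 0 to 2. For high-fat diet in control mice (0), array weights gave 2 and leaving out 1 array 0 to 2. For high-fat diet in penicillin mice (6), array weights gave 8 (5 of them among the 6), the fit without the 3 arrays of low 18S gave 6 (3 of them among the 6), the 6 arrays alone gave 3, leaving out 1 array gave 2 (without penicillin with high-fat diet 1) to 7, and the replicate block 5. For penicillin averaged over diets (0), averaging all probe sets gave 1, array weights 1, an 18S covariate 1, leaving out the 3 arrays of low 18S gave 3 (Abcb1a, Abca8a and Abcc6), and leaving out 1 array 0 to 1. For high-fat diet averaged over treatments (5), leaving out those 3 arrays gave 9, of which 3 were among the 5, leaving out 1 array gave 4 to 6. In this averaged diet comparison, averaging all probe sets lost Abca1 and added Abcb1a (adjusted p = 0.014), Abcc9 (0.0312) and Abcc10 (0.0492). Without the filter on dim genes Abcb1b, under the floor on all arrays, was added (-0.62, adjusted p = 0.0317). For high-fat diet in penicillin mice, averaging all probe sets lost Abca1 and dropping the filter lost Abca2. The floor at the 60th percentile lost Abcb1a there and added Abca9 (adjusted p = 0.044). For any difference among groups (5), averaging probe sets gave 3 and leaving out 1 array 4 to 6. Deviations of same-numbered arrays from their group means correlated between groups at -0.23 to 0.172. They were not set against differently numbered arrays, so whether the replicate numbers pair mice was not settled. Of the named calls the replicate block removed that of Abcc9 (adjusted p = 0.0713). Over all genes, penicillin on chow called 1 gene, against 251 without the 3 arrays of low 18S, and penicillin averaged over diets 20, against 416 without them and 179 with the covariate; with the covariate penicillin on chow called 0. Array weights moved penicillin on high-fat diet to 183 from 47 and high-fat diet in control mice to 571 from 124. In every fit without the 3 arrays of low 18S, penicillin with chow rests on its replicate 1 alone, assumed to vary like the other groups; that mouse stands apart (S100a8 at 9.14), so these counts, the 251 included, rest on 1 array of that group.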

Other observations

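The 5 transporters under the floor were described only by their levels. Abcb1b was at 4.84 on penicillin with chow 1 and at most 4.25 on the other 11 arrays. The same mouse had the lowest values of Abca8a on chow (10.35, against 10.87 to 11.19 in the other chow mice) and the lowest of all 12 mice for Abca8b (7.15) and Abcc6 (9.59). It also carried the highest S100a8 (9.14) and S100a9 (9.29).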
